A study of Mus musculus with 6 samples.

Results

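The heavy chain of an antibody is assembled in B lineage cells from V, D and J segments, and the V segment supplies most of the variable domain. The deposited table held 106 rows with an Ighv symbol of the form family number, hyphen, gene number, and the 100 of them with at least 30 reads summed over the 6 libraries are described here, out of 18491 genes in all. The libraries were made from bone marrow cells sorted as haematopoietic stem and progenitor cells. There were 3 wild-type libraries (WT) and 3 Robo1 knockout libraries (KO), and all were taken 8 months after poly(I:C). The knockout used Mx1-cre, a recombinase under an interferon-inducible promoter that poly(I:C), given in 3 doses, switches on in blood-forming and other cells. The sample titles and treatment fields call the same libraries shRNA control and knockdown, with the knockdown target written as ROBO1, ROBO2 and ROBO3 in turn. Robo1 itself was not analysed here, which leaves the labels without a check on the targeted gene. Strain, age and sex are not given in the sources used here, nor is it stated whether libraries came from separate mice, so the p-values speak of variation among these 6 libraries and it may be technical.

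Each developing B cell joins 1 V segment to a D and J segment, and progeny of that cell keep the same V segment. Transcripts of rearranged heavy V genes are most abundant in antibody-secreting plasma cells. The heavy V segments lie in a row on chromosome 12, read from the minus strand, with the D, J and constant genes at the low-coordinate end. All 106 rows were placed by GENCODE vM21 between positions 113578504 and 116000461 of GRCm38, from Ighv5-2, the row nearest to the D segments, to Ighv1-85. Of the members, 92 were annotated as V genes and 8 as V pseudogenes. In bulk RNA fewer cells of a type and less RNA per cell cannot be told apart.

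The 3 prime ends of Ighv11-2, of 7 segments whose usage differed strongly and of Ighv1-26, a near-copy of Ighv1-18, are shown first, because the V segment's last bases open the third complementarity-determining region of the antibody. Each is the last 48 bases of the spliced V transcript, 5 prime to 3 prime. Capitals run from the cysteine codon that closes framework 3 to the end of the germline segment. The codon was taken as the last TGT that follows a tyrosine or phenylalanine codon near the 3 prime end.
Ighv11-2 (chr12:114048241-114048288, minus strand): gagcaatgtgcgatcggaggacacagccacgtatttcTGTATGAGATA
Ighv1-81 (chr12:115920279-115920326, minus strand): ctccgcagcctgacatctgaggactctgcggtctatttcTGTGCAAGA
Ighv9-1 (chr12:114093928-114093975, minus strand): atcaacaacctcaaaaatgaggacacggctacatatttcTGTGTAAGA
Ighv5-6 (chr12:113625506-113625553, minus strand): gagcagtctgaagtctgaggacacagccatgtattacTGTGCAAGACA
Ighv8-12 (chr12:115647945-115647992, minus strand): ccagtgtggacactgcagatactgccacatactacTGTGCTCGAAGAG
Ighv1-18 (chr12:114682632-114682679, minus strand): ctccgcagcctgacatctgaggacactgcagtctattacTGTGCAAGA
Ighv1-26 (chr12:114788372-114788419, minus strand): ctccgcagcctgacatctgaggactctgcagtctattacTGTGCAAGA
Ighv1-15 (chr12:114657353-114657400, minus strand): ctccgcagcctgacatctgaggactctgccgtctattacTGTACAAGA
Ighv1-78 (chr12:115868773-115868820, minus strand): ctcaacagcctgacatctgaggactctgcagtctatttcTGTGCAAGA
The ending TGTGCAAGA was shared by 50 members, 48 of them in family 1, so these last bases separate few family 1 genes from each other. Among those 50, the share of heavy V counts rose for 16 and fell for 8 by the edgeR test described below. Of all 90 members tested 27 rose and 21 fell. Over all genes tested on that scale 4.08% were called higher and 71.0% lower. Ighv9-1 alone ended in TGTGTAAGA.

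Family 9 is shown at greater length because its 4 members went different ways. Each line is the last 150 bases of the transcript, and capitals mark bases that differ from Ighv9-1 at the same distance from the 3 prime end.
Ighv9-1 (chr12:114093928-114094077, minus strand): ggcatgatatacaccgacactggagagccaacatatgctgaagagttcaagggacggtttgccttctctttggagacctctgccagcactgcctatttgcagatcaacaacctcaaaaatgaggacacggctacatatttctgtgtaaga
Ighv9-2 (chr12:114109001-114109150, minus strand): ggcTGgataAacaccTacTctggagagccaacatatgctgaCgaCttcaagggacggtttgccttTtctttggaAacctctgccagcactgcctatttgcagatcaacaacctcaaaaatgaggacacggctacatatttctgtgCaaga
Ighv9-3 (chr12:114140692-114140841, minus strand): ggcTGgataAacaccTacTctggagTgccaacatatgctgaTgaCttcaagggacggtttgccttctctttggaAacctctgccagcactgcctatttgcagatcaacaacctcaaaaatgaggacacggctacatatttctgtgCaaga
Ighv9-4 (chr12:114299961-114300110, minus strand): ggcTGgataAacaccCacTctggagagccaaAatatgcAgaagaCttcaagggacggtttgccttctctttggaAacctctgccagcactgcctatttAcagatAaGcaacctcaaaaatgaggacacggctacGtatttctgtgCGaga
In this stretch Ighv9-2 and Ighv9-3 each differed from Ighv9-1 at 10 positions and Ighv9-4 at 15. Over the whole transcript Ighv9-2 was 95.7% identical to Ighv9-1, Ighv9-3 93.2% and Ighv9-4 88.6%. All sequences are from GENCODE vM21 transcripts on GRCm38.

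The heavy V portion of all reads overlapped between the groups. They took 0.0657%, 0.0654% and 0.0657% of all counts in the WT libraries and 0.0659%, 0.0697% and 0.0626% in the KO libraries. The KO libraries lay on both sides of the WT libraries (exact permutation test, two-sided, p = 0.7, where 3 against 3 allows no p below 0.1). The heavy V total was 29305, 35302 and 38176 counts in WT and 37610, 36013 and 26460 in KO, out of library totals of 42235077 to 58106099. On the TMM scale, which takes most genes as unchanged between the groups, the same total was 443 ± 13.6 CPM in WT and 979 ± 51.1 CPM in KO (mean ± SD, n = 3 each), and the groups did not overlap (exact permutation p = 0.1). Whether the heavy V total is read as level or higher therefore depends on the scaling, and usage is given below as each gene's share of the heavy V counts of its own library, which no library scaling alters. The shares of a library have a fixed sum, so a large fall of some genes raises the shares of all others.

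The number of heavy V genes in use overlapped as well. The effective number of genes, the inverse Simpson index of the shares, was 16.8, 16.1 and 15.7 in WT and 17.0, 16.7 and 15.8 in KO, and the ranges overlapped (exact permutation p = 0.6). The 10 most used genes of each library took 62.4 ± 0.876% of heavy V counts in WT and 60.5 ± 0.430% in KO (n = 3 each). In this share the groups did not overlap (exact permutation p = 0.1). The 5 most used took 48.8 ± 0.771% in WT and 45.4 ± 0.330% in KO, also without overlap (exact permutation p = 0.1). In each WT library 92 of the 106 rows had a count, against 101, 98 and 92 in KO.

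Which genes were used differed between the groups. For each pair of libraries 2 measures were taken. The first was the usage in common, the sum over genes of the smaller of the 2 shares. It was 94.6% to 94.8% within WT and 93.0% to 95.1% within KO, over 3 pairs each, but 66.5% to 68.9% over the 9 pairs of a WT and a KO library. The second, chi-square per degree of freedom of the heavy V counts, would be near 1 for pure counting noise. It was 6.32 to 6.55 within WT and 4.64 to 6.93 within KO, so no 2 libraries of a group matched to within counting noise, and it was 111 to 150 between groups. Libraries of 1 group were thus more like each other in heavy V usage than any WT library was like any KO library. Over all genes chi-square per degree of freedom was 13.3 to 37.0 within WT, 15.9 to 28.4 within KO and 403 to 603 between groups. The separation of the groups was therefore not particular to heavy V genes.

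**Figure D1:**
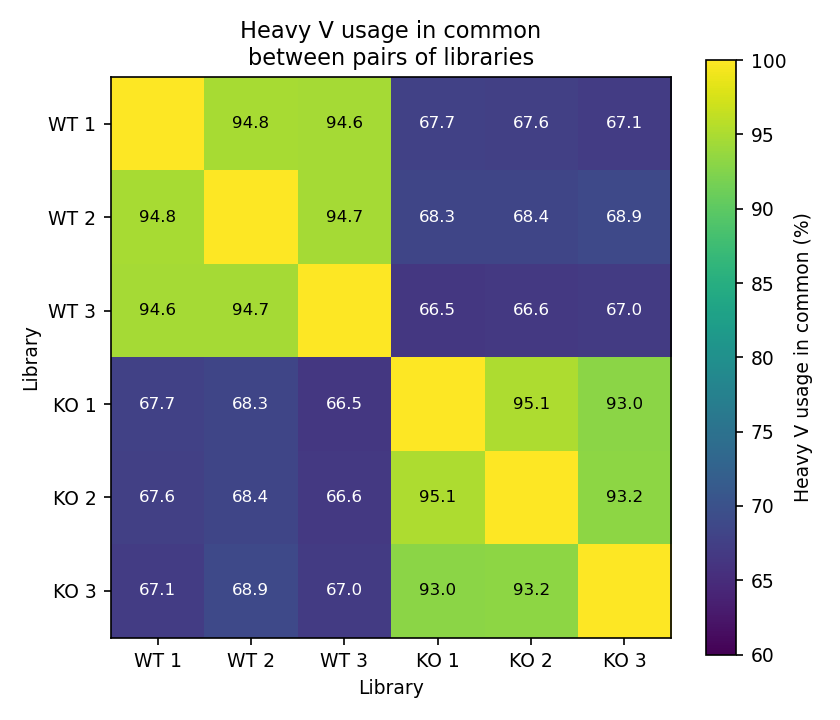
Heavy V usage in common for each pair of the 6 libraries, in percent: the sum over the 106 rows of the smaller of the 2 shares. Pairs within a group lie between 93.0% and 95.1% and pairs across groups between 66.5% and 68.9%.

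Of the 100 members 90 had enough reads to be tested. With the heavy V total of each library as its size, 27 rose in share in KO, 21 fell and 42 did not pass (edgeR quasi-likelihood test, Benjamini-Hochberg adjusted over 15474 genes). Of all genes tested on this scale, 4.08% were called higher and 71.0% lower (75.1% in all), since most other genes were lower relative to the heavy V total. The median member changed by 0.13 on the log2 scale, against -1.24 for all genes. Changes of 2-fold or more were seen in 19 members that rose and 15 that fell, while 30 of the 90 were within 1.5-fold either way. In 39 members every KO library had a higher share than every WT library, and in 30 every KO library had a lower one; over all genes tested the 2 patterns held for 4.76% and 76.0%. The 39 include the 5 members with no read in any WT library, which could separate only upward. Those of the 5 that passed, named below, are also among the 27 and could pass only upward.

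**Figure D2:**
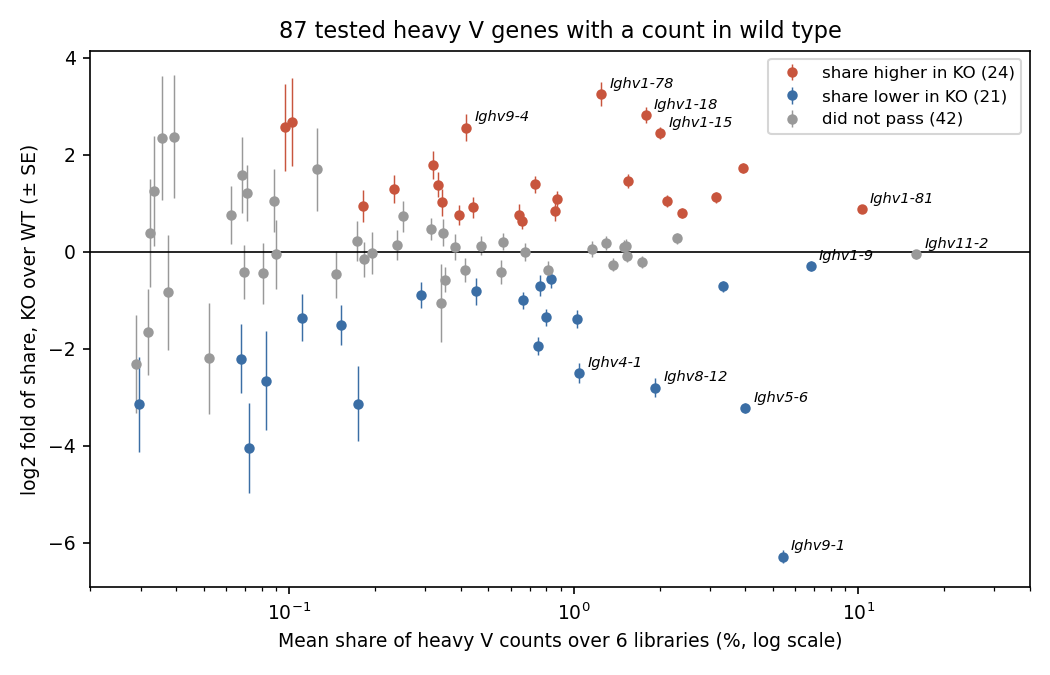
log2 fold of the share of heavy V counts, KO over WT, with its SE, against the mean share over the 6 libraries, for the tested members with a count in WT. Red points rose and blue points fell at an adjusted p under 0.05, grey points did not pass; Ighv9-1 and Ighv5-6 stand lowest among well-used genes, and Ighv11-2, with the most reads, lies at -0.05.

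The heavy V gene with the most reads was Ighv11-2 (chromosome 12, 114048241 to 114048812, GRCm38), known from B-1 cell antibodies that bind phosphatidylcholine. Its share was 15.7%, 16.4% and 16.6% in WT and 14.3%, 15.3% and 17.2% in KO, and the groups overlapped. The log2 fold of share was -0.05 (SE 0.09, edgeR adjusted p = 0.585). Ighv1-81 (115920279 to 115920712, the far end of the locus) took 7.09%, 7.26% and 7.34% in WT and 13.8%, 13.4% and 12.6% in KO, a rise of 0.88 (SE 0.08, edgeR adjusted p = 5.71e-06). Ighv1-9 took 7.39%, 6.91% and 8.11% in WT and 6.58%, 6.05% and 5.74% in KO. Its fall of 0.29 (SE 0.10, edgeR adjusted p = 0.0221) was no call without WT replicate 3 (adjusted p = 0.101), KO replicate 2 (0.0624) or KO replicate 3 (0.0608).

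Ighv9-1 (114093928 to 114094358) showed the largest fall in share among members with a mean share of at least 0.3%. It supplied 10.5%, 10.9% and 10.7% of heavy V counts in WT and 0.141%, 0.153% and 0.113% in KO. In reads this was 3084, 3843 and 4085 against 53, 55 and 30. The share was 77.9-fold lower (log2 -6.28, SE 0.13, edgeR adjusted p = 1.57e-08). The next largest fall was that of Ighv5-6 (113625506 to 113625956), which took 7.39%, 7.40% and 6.85% in WT and 0.779%, 0.783% and 0.752% in KO. It was 9.35-fold lower (log2 -3.22, SE 0.10). Neither reached 1% in any KO library.

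Smaller segments fell as well. Ighv8-12 took 3.11%, 3.09% and 3.91% in WT and 0.401%, 0.422% and 0.639% in KO, 6.97-fold lower. Ighv4-1 took 1.53%, 2.26% and 1.53% in WT and 0.330%, 0.333% and 0.280% in KO, 5.63-fold lower. Ighv14-4 went from 1.19 ± 0.0599% to 0.307 ± 0.0543% (n = 3 each). The remaining large falls were those of Ighv1-22 (log2 -1.38), Ighv5-9-1 (-1.35) and Ighv1-66 (0.885 ± 0.123% to 0.442 ± 0.0309%). In all of these every KO library lay below every WT library.

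Most of the large rises were in family 1. Ighv1-78 (115868773 to 115869227) took 0.283%, 0.150% and 0.278% in WT and 2.30%, 2.55% and 1.94% in KO, a 9.56-fold rise (log2 3.26, SE 0.24, edgeR adjusted p = 2.10e-06). Ighv1-18 (114682632 to 114683065) took 0.522%, 0.431% and 0.375% in WT and 2.75%, 3.16% and 3.48% in KO, a 7.09-fold rise (log2 2.83, SE 0.16). Ighv1-15 (114657353 to 114657786) took 0.689%, 0.595% and 0.589% against 3.49%, 3.21% and 3.51%, a 5.46-fold rise (log2 2.45, SE 0.12). All 3 were minor genes in WT and stood above 1.9% in each KO library.

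Ighv1-55 rose from a higher base, at 1.89%, 1.86% and 1.72% in WT and 6.0%, 6.33% and 5.78% in KO (log2 1.73, SE 0.10). Ighv1-76 (log2 1.47), Ighv1-77 (1.80) and Ighv1-39 (1.39) also rose. Of the other leading genes, Ighv1-53 rose from 1.99 ± 0.153% to 4.33 ± 0.278% and Ighv1-26 from 1.74 ± 0.155% to 3.04 ± 0.0957% (n = 3 each). Ighv1-74, also of family 1, fell from 4.15 ± 0.121% to 2.53 ± 0.253%. Ighv5-17 stood at 2.07 ± 0.0945% and 2.52 ± 0.274%, which did not pass (edgeR adjusted p = 0.0536).

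**Figure D3:**
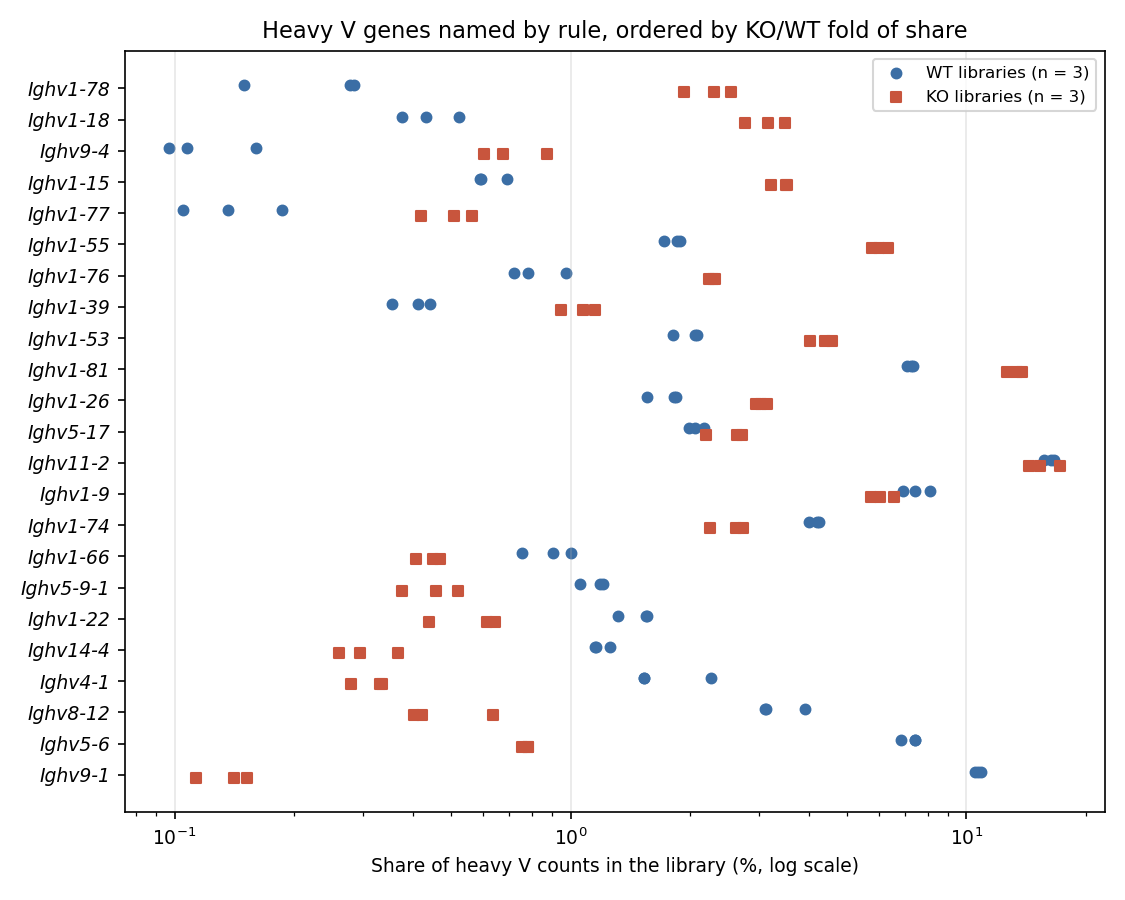
Share of heavy V counts in each library (percent, log axis) for the 10 most used genes and the 8 largest rises and 8 largest falls; circles are WT and squares KO libraries, 3 each. Ighv9-1 moves from over 10% to under 0.2%, Ighv1-78 from under 0.3% to about 2%, and the groups overlap for Ighv11-2.

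Some V segments were seen in 1 group alone. Ighv2-6-8 had 0 reads in each WT library and 84, 56 and 36 in KO, so its share was at least 60.2-fold higher, set against 3 counts over the group. Ighv8-5 had 0 in WT and 32, 26 and 16 in KO (at least 25.3-fold higher), and Ighv5-15 had 0 in WT and 25, 18 and 9 in KO (at least 17.8-fold higher). These 3 passed the test, but they met the read filter through their KO reads alone. With 0 in WT a pass could only be upward, so it adds nothing beyond these reads. Ighv12-3, whose product is another known phosphatidylcholine-binding V region, had 0 in WT and 20, 8 and 9 in KO, and Ighv1-36 had 0 in WT and 14, 20 and 3 in KO. Both were under the read filter and untested, and both bounds came to 12.7-fold. A count of 0 allows a share of up to 0.0079% to 0.0102% in a WT library, for counting error only, and PCR copies are not independent molecules. The reverse pattern was seen once, for the pseudogene Ighv1-83, and rested on 1 library: 40 reads in WT replicate 3 and 0 in every other library.

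The limit of 30 reads cut through genes near the detection limit. Just inside it stood Ighv1-47 with 31 reads and Ighv1-36 with 37, tied with Ighv12-3. Just outside stood Ighv8-4 with 23 and Ighv4-2 with 20, tied with Ighv1-79. Of the 10 untested members, 9 were in family 1 and the other was Ighv12-3. Of all 100 members 73 had a read in every library. Ighv11-1, the other member of family 11, had 111 and 130 reads in KO replicates 1 and 2 and 0 in KO replicate 3, against 130, 175 and 170 in WT.

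Read by family, usage moved towards family 1 in KO. Family 1, the largest with 57 members, supplied 43.2%, 41.3% and 42.5% of heavy V counts in WT and 65.9%, 65.6% and 62.1% in KO. Within it 19 members rose, 8 fell, 21 did not pass and 9 were untested. Without Ighv1-81 the family still went from 37.8% to 59.1% of the remaining counts. Part of the gain of family 1, with or without Ighv1-81, is the lift that the falls of Ighv9-1 and Ighv5-6 give to every other share. Family 5, with 9 members, went from 15.8 ± 0.596% to 8.89 ± 0.315%, with 1 member higher and 4 lower. The higher member had no read in any WT library, so it could pass only upward. Without Ighv5-6 its means were 9.27% and 8.18%, so most of that difference lay in 1 gene.

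Family 9 supplied 12.8%, 12.9% and 12.8% in WT and 2.49%, 2.55% and 2.54% in KO. This difference was that of Ighv9-1: without it the family took 2.40% of the remaining counts in both groups. Of the other members, Ighv9-4 rose from 0.122 ± 0.0340% to 0.717 ± 0.140%, Ighv9-2 fell (log2 -1.36, SE 0.49, edgeR adjusted p = 0.0284), and Ighv9-3 stood at 1.86 ± 0.129% and 1.61 ± 0.122% and did not pass. The 3 segments are 88.6% to 95.7% identical to Ighv9-1, and none had a log2 fold of share as low as its -6.28.

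Family 11 overlapped between the groups, at 16.7 ± 0.501% and 15.9 ± 1.31%, and family 10 did too, at 1.51 ± 0.192% and 1.38 ± 0.118% (exact permutation p = 0.4 each). Without Ighv11-2 the rest of family 11 was Ighv11-1 alone, lower in KO at 0.257% against 0.551%, with no read in KO replicate 3. Without Ighv10-3 the rest of family 10 was lower too, at 0.206% against 0.383% (exact permutation p = 0.1 each). Family 8 supplied 4.47%, 4.17% and 5.03% in WT and 1.34%, 1.13% and 1.49% in KO, led by Ighv8-12. Family 4 went from 1.79 ± 0.407% to 0.320 ± 0.0351%, nearly all of it Ighv4-1. Family 14 was lower in KO (1.67 ± 0.107% against 1.01 ± 0.0468%), but without Ighv14-4 it was higher, at 0.707% against 0.490%. The small families 2, 3, 6 and 7 each stood higher in KO, between 1.23 and 1.67 times the WT mean. These ratios are not corrected for the falls of Ighv9-1 and Ighv5-6, which raise every other share. Without Ighv3-6, family 3 was lower, at 0.00907% against 0.0688%. Without Ighv6-3, family 6 stood at 0.160% in WT and 0.188% in KO and the groups no longer separated (exact permutation p = 0.6). Of the 14 families, 11 did not overlap between groups, each with the smallest p this design allows (exact permutation p = 0.1, adjusted over the 14 families p = 0.127), so none passed. The 11 include family 12, which is Ighv12-3 alone, with no read in WT, so that it could separate only upward.

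**Figure D4:**
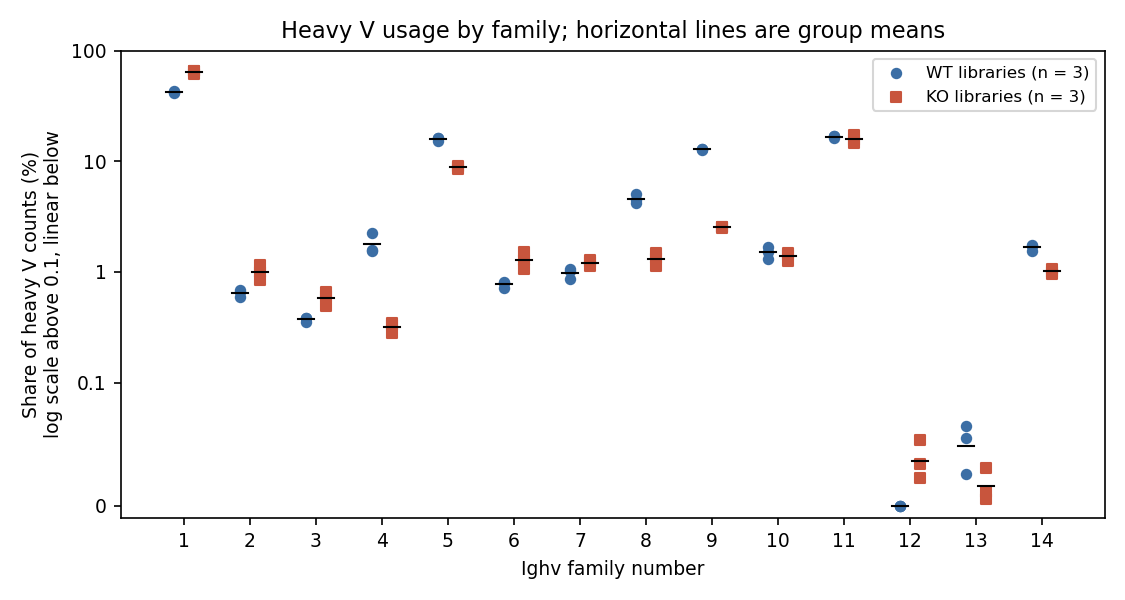
Share of heavy V counts by Ighv family number in each library, 3 WT (circles) and 3 KO (squares), with group means as lines; the axis is logarithmic above 0.1% and linear below. Family 1 is higher in KO, families 4, 5, 8, 9 and 14 are lower, and families 10, 11 and 13 overlap.

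Position in the locus was not used to choose the members. The 106 rows were divided in order into sections of 35, 36 and 35 rows. The section nearest to the D segments supplied 50.3%, 52.0% and 50.3% of heavy V counts in WT and 30.2%, 30.7% and 33.3% in KO. The middle section went from 20.2 ± 0.391% to 26.9 ± 0.456% and the far section from 28.9 ± 0.657% to 41.7 ± 1.36% (n = 3 each). The groups did not overlap in any section (exact permutation p = 0.1 each, the smallest possible). Among tested members of the near section 6 rose and 10 fell, in the middle section 9 rose and 6 fell, and in the far section 12 rose and 5 fell. The rises counted over the sections include the members with no read in WT that passed, and these could pass only upward. Ighv9-1 and Ighv5-6 both lie in the near section. Without them it took 40.1 ± 1.02% of the remaining counts in WT and 30.8 ± 1.73% in KO, a setting chosen after the values were seen. Position and family go together here, since family 1 lies in the middle and far sections.

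**Figure D5:**
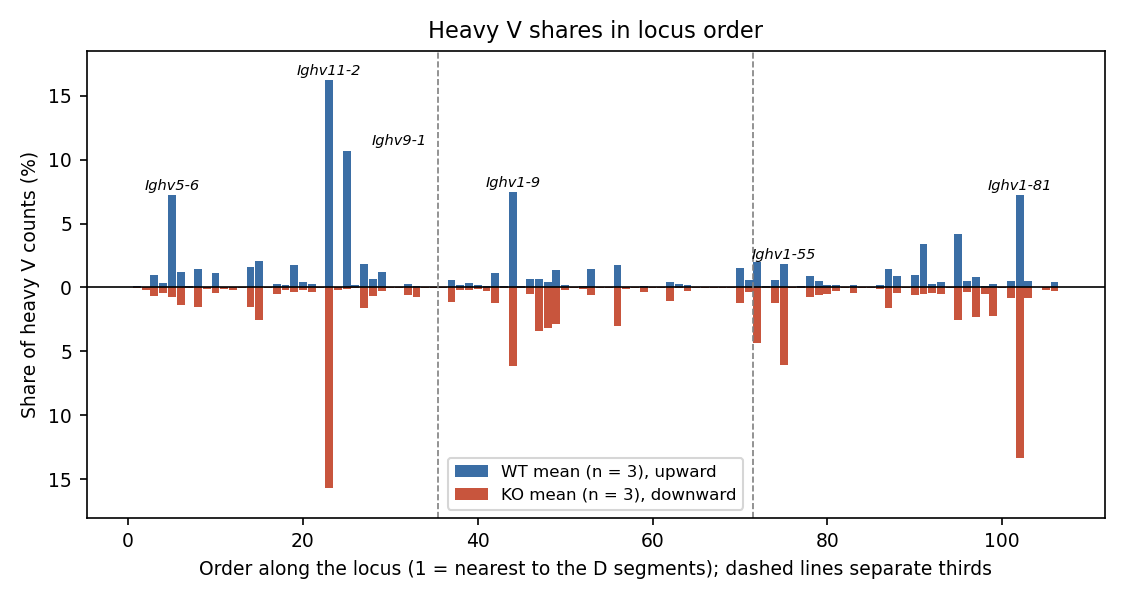
Mean share of heavy V counts (percent, n = 3 each) of the 106 rows in their order along the locus, WT drawn upward and KO downward; dashed lines separate the 3 sections. Ighv11-2 is the tallest bar in both groups, the bars of Ighv5-6 and Ighv9-1 in the near section are under 1% in KO, and Ighv1-81 near the far end is taller in KO.

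Sequence likeness limits how far single members can be told apart. The closest other annotated heavy V segment was over 95% identical for 30 members and identical for 0, and the median member had a closest relative at 92.3%. The sources used here do not say how reads matching several genes were counted. Ighv1-18 and Ighv1-26 are 96.9% identical, and both rose. Ighv1-15 is 98.0% identical to Ighv1-23, which stood at 0.0483% in WT and 0.0266% in KO and did not pass. Ighv14-4 is 97.4% identical to Ighv14-1, which stood at 0.192% and 0.173% and did not pass either. The closest relative of Ighv11-2 is only 75.7% identical. The V pseudogenes took 0.660 ± 0.0599% of heavy V counts in WT and 0.310 ± 0.0964% in KO, led by Ighv1-41 with 109, 112 and 94 reads against 18, 0 and 16.

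Levels of different genes are compared per length only. By share of the deposited FPKM values, which allow for gene length, the order differed between the groups. In WT it was Ighv11-2 (13.1%), Ighv9-1 (11.9%), Ighv1-9 (7.97%), Ighv1-81 (7.67%) and Ighv5-6 (7.61%). In KO it was Ighv1-81 (14.3%), Ighv11-2 (12.8%), Ighv1-9 (6.57%), Ighv1-55 (5.47%) and Ighv1-53 (4.64%), with Ighv9-1 at 0.148%. These are group means, and differences between neighbours were not tested.

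Against whole libraries the picture is set by scaling. With TMM 56 of the 90 tested members rose, 6 fell and 28 did not pass, where 17.2% of all genes were called higher and 14.4% lower, 31.7% in all (edgeR quasi-likelihood test). With total counts 28 rose and 21 fell, against 4.23% and 70.7% of all genes (74.9% in all). Of the 56, 27 also rose in share, 26 did not pass in share and 3 fell in share, namely Ighv1-9, Ighv1-74 and Ighv5-4. The 6 that fell even with TMM were Ighv9-1, Ighv5-6, Ighv8-12, Ighv4-1, Ighv14-4 and Ighv5-2. The authors' deposited table classes 55 of the 100 members as up, 6 as down and 39 as stable.

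The other parts of the antibody transcript gave a check on whether V and constant segments moved alike. Heavy V counts were 0.136, 0.137 and 0.135 times the heavy constant counts in WT and 0.116, 0.120 and 0.107 times in KO, without overlap (exact permutation p = 0.1). Kappa light chain V counts were also lower against the kappa constant gene, at 0.251 ± 0.0212 times in WT and 0.186 ± 0.00626 times in KO (n = 3 each), again without overlap (exact permutation p = 0.1). Most heavy constant counts were of Ighm, the IgM constant gene, at 72.6 ± 0.619% in WT and 73.9 ± 1.29% in KO, with Igha, the IgA constant gene, at 23.9 ± 0.572% and 24.0 ± 1.34%. The smaller IgG genes differed: Ighg3 took 0.0730 ± 0.0226% and 0.548 ± 0.0247%, Ighg1 0.684 ± 0.0503% and 0.0879 ± 0.00810% (exact permutation p = 0.1 each, the smallest possible). Among J segments Ighj3 took 18.8%, 22.5% and 25.2% of heavy J counts in WT and 14.8%, 5.17% and 5.03% in KO, so KO replicate 1 stood apart from the other two, and Ighj1 took 32.5 ± 2.49% and 41.8 ± 4.44%. The ratio of heavy V to kappa V counts overlapped between groups, at 0.163 ± 0.0108 and 0.150 ± 0.00890.

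Markers of the cells were read with TMM, where 17.2% of all genes tested were called higher and 14.4% lower. All 15 stem and progenitor markers were detected, with a summed level of 196 to 200 CPM in WT and 189 to 202 CPM in KO. Of these 1 rose and 4 fell (median log2 fold -0.42, against -0.09 for all genes). Markers of antibody-secreting and B cells were present too. The 18 plasma cell markers summed to 1223 to 1319 CPM in WT and 1605 to 1824 CPM in KO, with 3 higher and 5 lower (median -0.23). The higher sum came from Jchain and from Sec11c, a signal peptidase subunit, which went from 376 to 525 CPM, while most of the other markers stood lower in KO. Jchain, which joins IgM and IgA into polymers, stood at 641 ± 37.8 and 993 ± 108 CPM, a log2 rise of 0.63 with TMM and a fall of 0.50 with total counts. Xbp1, a transcription factor of plasma cells, fell by 1.29 (SE 0.20). Leaving out single libraries left 1 to 4 lower in each of these lists, with 1 without WT replicate 3. Their part in the heavy V differences was not tested.

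Earlier B cell stages were read the same way. Of 14 measured pro-B and pre-B markers 0 rose, 5 fell and 9 did not pass (median -0.50; summed level 139 to 157 CPM in WT and 107 to 120 CPM in KO). The number that fell was 1 to 4 when single libraries were left out, and 1 without KO replicate 2, WT replicate 1 or WT replicate 3. Igll1, a surrogate light chain gene, fell by 0.62 (SE 0.16), and Ebf1, a factor of B lineage commitment, by 1.80 (SE 0.51). Of 10 tested mature B markers 1 rose and 1 fell (median -0.04). Cd37 rose by 0.40 (SE 0.07), and H2-Ab1, an MHC class II gene, fell by 0.41 (SE 0.05). H2-Aa, another MHC class II gene, stood at -0.05 and did not pass. Of 3 tested T cell markers 0 rose and 1 fell (summed level 10.8 to 11.7 CPM and 5.18 to 7.87 CPM).

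Genes that act on the heavy V locus were also listed. Of 29 tested genes of V(D)J recombination and locus folding 3 rose, 7 fell and 19 did not pass (median -0.10). Without WT replicate 2 only 1 fell, and 3 fell without KO replicate 1 or WT replicate 3. The DNA-bending proteins Hmgb2 (log2 1.73, SE 0.06) and Hmgb1 (1.15, SE 0.08) rose; with total counts Hmgb2 was still called higher, at 0.59, and Hmgb1 stood at 0.01. Xrcc6, the Ku70 end-joining subunit, fell by 0.63 (SE 0.10). Rag1 was not analysed here. Of 13 tested genes of V promoters and class switching 0 rose and 3 fell (median -0.18), among them Spi1, which encodes PU.1, by 0.76 (SE 0.15) and Irf8 by 0.64 (SE 0.15). With total counts every list had a median at or below -1.18, against -1.22 for all genes tested.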

How the data were processed

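RNA was sequenced from 6 libraries, 3 WT and 3 KO, from TruSeq libraries, per the labels' protocols. The authors deposited 1 table of 18491 genes with raw read counts, length-scaled values, and the log2 fold change with its SE, mean signal, test score and p-value of their own comparison, named as DESeq2 gives them, per the file headers. Build mm10 and these tools stand in the submitters' processing notes, without roles: DESeq2 1.32.0, featureCounts 2.0.1, HISAT2 2.2.1 and fastp 0.22.0. Strand and multi-mapping settings are not given in the sources used here. The deposited length-scaled values carry no unit and were taken as FPKM: for members with at least 100 counts, 90.2% of 296 values lay within 5%, and all within 20%, of counts over annotated length at 1 constant per library.

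Groups and replicate numbers follow the sample descriptions. All tests used edgeR 4.0.16 in R 4.3.3 on the deposited counts of 15474 genes kept by filterByExpr (quasi-likelihood test, two-sided, group as the only term, calls at an adjusted p under 0.05), once with TMM and once with the summed count of the 106 Ighv rows as library size. The SE is the log2 fold change over the square root of F. Fold changes for genes at 0 in a group are bounds against 3 counts. Library values were compared by exact permutation tests with scipy 1.17.1. Positions and sequences are from GENCODE vM21 (GRCm38, also called mm10), and identity is from edit distance with edlib. The 95% Wilson interval of any single share was at most 0.455 percentage points either side, for counting error only. The procedure was tested on simulated data.

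The named members are the 10 of highest mean share, the 8 largest rises and 8 largest falls in share among those that passed, did not overlap and had a mean share of at least 0.3%, and those beside the limit of 30 reads; from each list, up to 4 genes of lowest p. A gene that this rule names is not reported here. Other genes named were chosen after their values were seen. The members and lists were chosen with earlier results of these data known. Alternatives were DESeq2 1.42.0, other scalings and totals, no filter, FPKM, a replicate block and leaving out each library.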

Additional observations from a re-analysis of the deposited data

How the results depend on the processing

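The counts of calls in share stayed within 1.5 times: 26 to 30 members rose and 15 to 21 fell when the members' own total, a total without Ighv11-2, DESeq2, no filter, the replicate block or 5 libraries were used. With total counts in place of TMM, 28 members rose and 21 fell against whole libraries, and 37 of the 62 calls remained. Replicate numbers did not pair the libraries (correlations of same-numbered deviations 0.04, -0.01 and 0.05), and with the replicate block 26 members rose and 19 fell in share and 51 rose and 5 fell with TMM.

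The heavy V total differed by -0.0194 percentage points as a share of summed FPKM, and by -0.00132 to 0.00222 when single libraries were left out, being lower in KO only without KO replicate 2. Without its most used gene family 14 turned to 0.217 and family 3 to -0.0597 percentage points (KO minus WT). Leaving out single libraries moved the log2 fold of the Ighv11-2 share between -0.13 (without KO replicate 3) and 0.00568 (without KO replicate 1).

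With total counts the lists gave these calls: stem and progenitor 0 higher and 13 lower, pro-B and pre-B 12 lower, mature B 0 higher and 8 lower, plasma cell 0 higher and 14 lower, T cell 3 lower, V(D)J recombination 1 higher and 25 lower, and promoter and class switch genes 9 lower. On that scale 4.23% of all genes tested were called higher and 70.7% lower, so a high number of lower calls is not particular to these lists. Leaving out single libraries moved the lower calls: stem and progenitor 1 to 4 (with 1 to 2 higher), pro-B and pre-B 1 to 4, plasma cell 1 to 4, T cell 1 to 2 and V(D)J recombination 1 to 8. Stem and progenitor markers had 2 lower without KO replicate 2 or WT replicate 2 and 1 without WT replicate 3, and 2 higher without WT replicate 1 or 3. Pro-B and pre-B markers had 2 lower without KO replicate 1 or WT replicate 2, and 1 without KO replicate 2 or WT replicate 1 or 3. Plasma cell markers had 2 lower without KO replicate 2 or WT replicate 2 and 1 without WT replicate 3. T cell markers had 2 lower without KO replicate 3. V(D)J recombination genes had 3 lower without KO replicate 1 or WT replicate 3 and 1 without WT replicate 2. The causes were not tested. The depth, 26460 to 38176 heavy V reads per library, limits shares near the value that a count of 0 allows.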
